A study of Mus musculus with 8 samples.

Results

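The data concern 10 adhesion genes of the immunoglobulin superfamily, measured by RNA-seq in murine SCLC (small cell lung cancer) cells with and without forced expression of the transcription factor Nfib. The genes were L1cam, Chl1, Nrcam, Nfasc, Ncam1, Ncam2, Cntn1, Cadm1, Alcam and Mcam, taken by symbol from the deposited table of read counts, which held 22691 genes. All 10 were found, and all 10 passed the filter on low counts that left 13380 genes to be tested.

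The libraries form 4 pairs, each pair being 1 culture of primary lung tumor-derived SCLC cells that received mouse Nfib or an empty vector (4 Nfib and 4 empty vector libraries). All 8 libraries share the genotype of the tumors, which carried the invCAG-Mycl-Luc transgene and were Rb1-/-, on a mixed FVB/n and 129/Ola background. Culture 1 is line Lmyc1, cultures 2 and 3 are both line Lmyc3, and culture 4 is line Lmyc5, and the labels call cultures 1 and 2 old and cultures 3 and 4 new without saying what the words mean. Nothing says that any arm of a culture was grown more than once. With the pairing in the model, the p-values rest on how the difference between arms varied over the 4 cultures, which may in part be technical. Without it, they rest on the spread between cultures within an arm. Tests between cultures use the spread left within pairs, so they compare these cultures and not lines in general. Counts per gene do not separate changes in the share of expressing cells from changes in the RNA of each cell.

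Adhesion molecules of this superfamily sit in the cell membrane and bind, through their immunoglobulin-like domains, to the same molecule or to relatives and matrix proteins on a neighbouring cell. L1cam, Chl1, Nrcam and Nfasc form the L1 family, whose short tails hold on to the cytoskeleton through ankyrins and which guide axons and hold ion channels in place in neurons. Ncam1 is a marker used to diagnose neuroendocrine tumors such as SCLC, and its sugar chains can carry polysialic acid that loosens contact between cells.

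Total counts lay between 21815264 and 29934021 per library, and 3 counts, the limit that a count of 0 allows, equalled 0.10 to 0.14 CPM (counts scaled to a common library size). The 10 genes together took between 0.0591% and 0.145% of the counts of a library. Nfib itself had 1282, 4682, 2933 and 3590 CPM in the Nfib libraries of cultures 1 to 4, against 71.97, 400.2, 163 and 487 CPM in the empty vector libraries, and the counts do not tell introduced Nfib from the cells' own. The cells expressed neuroendocrine markers: 10 of 10 listed SCLC markers were tested, and their summed level ran from 1960 to 4494 CPM in Nfib libraries and from 2941 to 4851 CPM in empty vector libraries. Grp, which encodes a peptide hormone of such tumors, was near absent at no more than 3.09 CPM in any library. In 3 marker lists 1 gene each was called in the paired DESeq2 test. Nkx2-1, a lung lineage factor within the SCLC list, fell by 0.39 ± 0.11 on the log2 scale (SE; DESeq2, adjusted p = 0.0122). Aldh1l1 of the glial list fell by 1.46 ± 0.47 (adjusted p = 0.0463) and Aqp5 of the alveolar list rose by 3.08 ± 0.71 (adjusted p = 0.00119). Each was the 1 gene called among 10, 3 and 5 tested, and the median log2 changes of these lists were -0.11, -0.03 and 1.03. Before adjustment the DESeq2 p was under 0.05 for 3, 1 and 3 of the genes tested in them, against 13.86% of all genes tested. Aqp5 had 0.392, 8.19, 0.734 and 11.2 CPM in the Nfib libraries of cultures 1 to 4, against 0.102, 0.473, 0 and 3.385 CPM in the empty vector libraries. With 1 pair removed Nkx2-1 passed in 2 of the 4 possible cases, Aqp5 in 3 and Aldh1l1 in 0, and Aldh1l1 did not pass with library totals as the scaling (adjusted p of 0.0593). None of these 3 genes passed in edgeR with the block (adjusted p-values of 0.179 to 0.214), and their part in the adhesion gene results was not tested. Of the markers of other cell types found in the table, 5 of 6 for leukocytes, 5 of 7 for fibroblasts and 7 of 10 for endothelium and pericytes stayed under 1 CPM in every library. So did 5 of 8 for Schwann and glial cells and 3 of 8 for alveolar and airway cells. Mbp, the most abundant gene of the glial list, ran from 91.05 to 238 CPM, with a DESeq2 log2 change of 0.0035 that did not pass. The leukocyte list summed to between 1.81 and 2.50 CPM in Nfib libraries and to between 1.56 and 2.53 CPM in empty vector libraries. The fibroblast list summed to between 3.89 and 39.5 CPM in Nfib libraries and to between 5.45 and 15.1 CPM in empty vector libraries, nearly all of it Thy1, which neurons also express and which reached 36.6 CPM in the Nfib library of culture 2, and Pdgfra, which reached 12.1 CPM in the Nfib library of culture 4, while the collagen genes Col1a1, Col1a2 and Col3a1 had at most 0.223 CPM. The part of these markers in the adhesion gene results was not tested.

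Promoter sequence was looked up because Nfib binds DNA. The RefSeq table (build GRCm38.p6) held 12 windows for 8 of the 10 genes, while Ncam1 and Cadm1 are named only. Each window covered the 250 bases before an annotated start. The full binding site of the nuclear factor I family, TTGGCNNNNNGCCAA, occurred in 0 of the 12 windows and in 0.037% of all 32851 windows of that length, both strands being searched. Its core TTGGC, which the full site contains, was found in 2 of the 12 windows (in Nfasc and Alcam) and in 41.5% of all windows. The Mcam, L1cam and Ncam2 windows held no such core, which says only that these letters are not in this stretch. The windows of L1cam (chrX:73880835-73881084, minus strand) and Ncam2 (chr16:81200447-81200696, plus strand) are shown because these 2 genes had the smallest p-values for a within-pair change after Mcam, and that of Nfasc (chr1:132642859-132643108, minus strand, before an internal start) because it holds a core, marked in capitals. The L1cam window also lies before an internal start, as the gene runs from 73853778 to 73896105 on the minus strand. The Mcam window overlaps annotated exons and is not printed.

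L1cam: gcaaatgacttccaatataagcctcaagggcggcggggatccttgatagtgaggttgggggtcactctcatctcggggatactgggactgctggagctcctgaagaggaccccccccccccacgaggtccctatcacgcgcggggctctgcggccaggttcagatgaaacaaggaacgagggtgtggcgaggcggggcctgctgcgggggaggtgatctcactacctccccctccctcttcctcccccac

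Ncam2: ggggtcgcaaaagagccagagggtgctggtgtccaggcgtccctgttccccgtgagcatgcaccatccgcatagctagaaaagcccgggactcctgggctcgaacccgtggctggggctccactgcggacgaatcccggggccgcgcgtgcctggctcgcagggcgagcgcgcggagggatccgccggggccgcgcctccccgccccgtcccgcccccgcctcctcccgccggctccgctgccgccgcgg

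Nfasc: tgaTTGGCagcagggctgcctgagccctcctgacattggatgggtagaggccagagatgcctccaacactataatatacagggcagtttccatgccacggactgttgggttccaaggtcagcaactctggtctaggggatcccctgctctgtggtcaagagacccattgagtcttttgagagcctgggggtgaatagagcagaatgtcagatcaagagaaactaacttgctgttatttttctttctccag

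Levels can be compared between genes only after division by transcript length, so CPM was divided by the length of each gene's merged exons. On that scale Ncam1 stood highest, with a mean of 20.97 CPM per kb over the 8 libraries and a range from 11.5 to 30.1, above 80% of all genes tested. Chl1 followed with a mean of 18.4 CPM per kb, but it ranged from 0.246 to 45.8, so its mean does not describe any culture. Alcam (12.2), Nfasc (11.98), Cadm1 (10.6) and L1cam (9.46 CPM per kb) had ranges that overlapped. The mean of L1cam lay below the lowest Nfasc library, at 9.94 CPM per kb. Cntn1 (5.25), Mcam (3.67), Nrcam (3.44) and Ncam2 (1.28 CPM per kb) made up the lower end, with Ncam2 above only 17.5% of tested genes. The order changed between cultures: Ncam1 ranked first in cultures 2 and 4, whereas Chl1 ranked first in cultures 1 and 3. No gene but Ncam1, Nfasc and Cadm1 kept above 5 CPM per kb in every library.

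**Figure D1:**
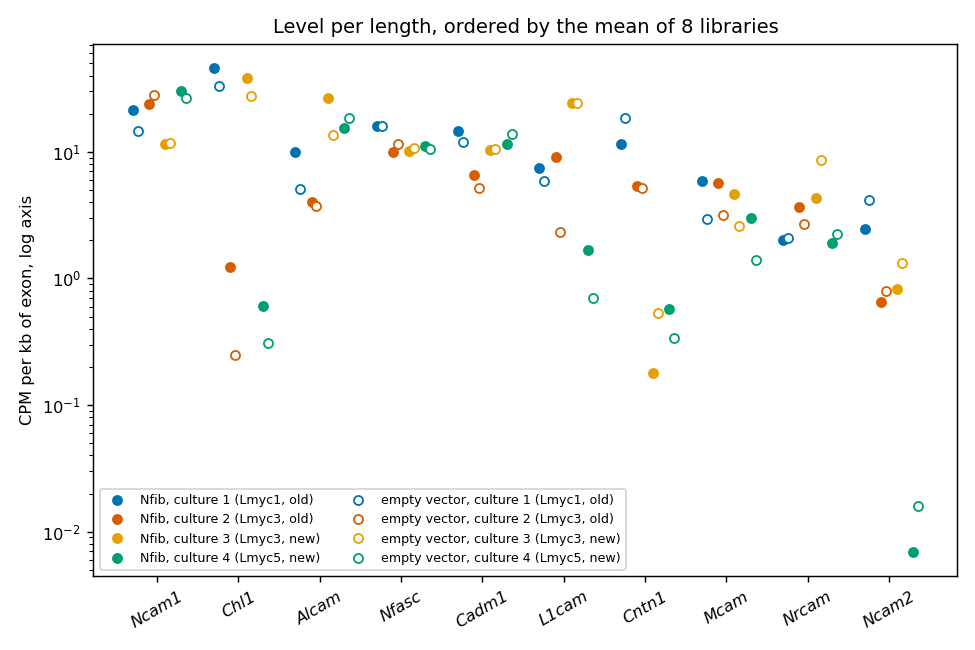
CPM per kb of merged exons (log axis) of the 10 adhesion genes, 1 point per library (filled, Nfib; open, empty vector; colour, culture), ordered by mean. Ncam1, Nfasc and Cadm1 stay within narrow bands, while Chl1 runs from 0.246 to 45.8 CPM per kb and Ncam2 falls lowest in culture 4.

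The first comparison asked which adhesion genes changed when Nfib was forced up. One of them did in the test within pairs: Mcam, the melanoma cell adhesion molecule that also marks blood vessel cells, rose, and was close to 2-fold higher in each culture (1.98, 1.78, 1.79 and 2.15-fold). The paired test was DESeq2's Wald test with the replicate number as a block, over all genes tested with Benjamini-Hochberg adjustment at 0.05, and rose and fell are used only of genes that passed it. This test was chosen with earlier results of these data known, in which edgeR called no gene. It called 1 of the 10 genes higher, where 1.86% of all genes tested were higher, and 0 lower, where 2.2% of all genes were lower (4.06% in either direction). Before adjustment, p was under 0.05 for 4 of the 10 genes (L1cam, Chl1, Ncam2 and Mcam) and for 1854 of the 13380. With library totals as the scaling, 324 genes were higher and 201 lower over the whole table, against 249 and 294 here, and with 1 pair removed both directions together came to between 234 (without culture 3) and 382 (without culture 2) genes, against 543. The Mcam call held under that scaling and in each of those fits. The median log2 fold change was 0.09 over the 10 genes and -0.0062 over all genes tested.

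Mcam lies on chromosome 9 from 44134469 to 44142727 (GRCm38, plus strand) and codes for a single-pass membrane protein. It had 19.5, 18.95, 15.7 and 10.1 CPM in the Nfib libraries of cultures 1 to 4, against 9.87, 10.6, 8.76 and 4.69 CPM in the empty vector libraries. The Nfib library was the higher one in each culture, although the groups overlapped because the Nfib library of culture 4 lay just under the empty vector library of culture 2. The 4 within-pair log2 ratios were 0.98, 0.83, 0.83 and 1.09. DESeq2 put the within-pair log2 change at 0.93 ± 0.15 (SE, n = 4 pairs, adjusted p = 6.99e-07), and with any 1 of the pairs removed Mcam still passed, at adjusted p-values between 0.00104 and 0.00948. The group means were 16.1 ± 4.32 CPM with Nfib and 8.49 ± 2.65 CPM with empty vector (SD, n = 4).

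The call on Mcam depends on the test, and on simulated counts the paired DESeq2 test called unchanged genes more often than its threshold allows. The edgeR quasi-likelihood test without a block, which ignores the pairing, gave it a log2 fold change of 0.92 with an unadjusted p of 0.027, and called 0 of the 10 genes and 0% of all genes (83 genes at an unadjusted p under 0.05, Mcam the only adhesion gene among them). With the block edgeR gave 0.94 ± 0.10 with an adjusted p of 0.115, and again called 0 of the 10 and 0% of all genes (2012 at an unadjusted p under 0.05, with 3 adhesion genes among them, Mcam, Ncam2 and Chl1). Because endothelial cells also express Mcam, the markers of that cell type and of pericytes were summed: they came to between 0.959 and 7.12 CPM in Nfib libraries and to between 0.903 and 1.82 CPM in empty vector libraries, with 7 of 10 markers under 1 CPM in every library. The highest sums held Kdr, a receptor for vascular growth factor, at 5.75 and 6.48 CPM in the Nfib libraries of cultures 2 and 3, while the defining markers Cdh5 and Tie1 had at most 0.0451 CPM. The within-pair log2 ratio of Mcam was 0.98 and 1.09 in cultures 1 and 4, where Kdr had no more than 0.156 CPM, and 0.83 in both other cultures. The part of such cells in the Mcam difference was not tested. An antisense gene shares 17 exon bases with Mcam and had 2 to 7 counts per library.

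**Figure D2:**
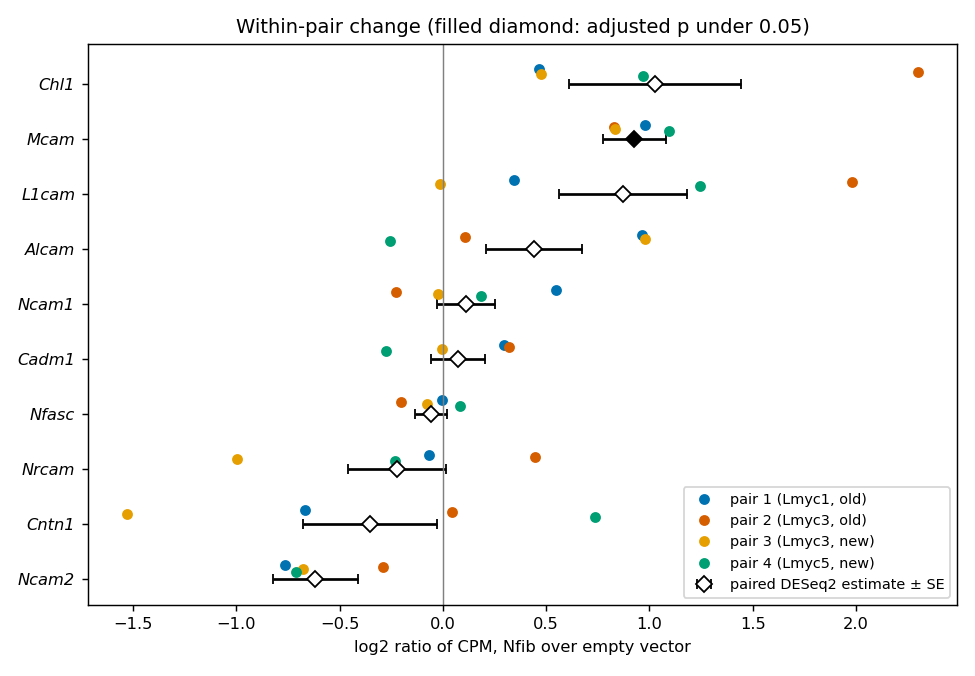
Log2 ratio of CPM, Nfib over empty vector, for each culture (coloured points) and the paired DESeq2 estimate with its SE (diamonds, filled at an adjusted p under 0.05). The 4 points of Mcam lie between 0.83 and 1.09, whereas those of Chl1, L1cam and Cntn1 are spread over more than 1.5 log2 units.

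The L1 family gave no call, and its members differed in how they moved. Chl1 (chromosome 6, 103510876 to 103733035), the close homolog of L1cam, had 562, 15.2, 474 and 7.49 CPM in the Nfib libraries of cultures 1 to 4, against 407, 3.03, 341 and 3.79 CPM in the empty vector libraries. It was higher with Nfib in every culture, most in culture 2, where it was 5.03-fold higher. The within-pair log2 change was 1.03 ± 0.42 (SE; DESeq2, adjusted p = 0.171), and without culture 2 it was 0.57 with an adjusted p of 0.00048, so the gene missed the threshold in the test of all 4 pairs and passed in the test of the 3 pairs that lie close together. With culture 1, 3 or 4 left out instead, Chl1 did not pass, at DESeq2 adjusted p-values of 0.277, 0.359 and 0.620.

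L1cam (chromosome X, 73853778 to 73896105), the founding member of the family, had 55.1, 67.2, 177 and 12.4 CPM with Nfib, against 43.4, 16.98, 179 and 5.19 CPM with empty vector. The Nfib library was higher in cultures 1, 2 and 4, with log2 ratios of 0.35, 1.98 and 1.24, and level in culture 3, the culture with the most L1cam, at -0.01. Its within-pair log2 change of 0.87 ± 0.31 (SE; DESeq2, adjusted p = 0.0874) did not pass. Of the fits with 1 pair removed, only that without culture 3 passed, at 1.19 with an adjusted p of 0.0222. Over these fits the change ran from 0.49 to 1.19, and the adjusted p reached 0.902. L1cam shares 100 exon bases with its neighbour Arhgap4 on the same strand, which had 44 to 119 counts per library.

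Nrcam, which binds contactins and gathers sodium channels on axons, had 26.7, 49.0, 57.7 and 25.5 CPM with Nfib, against 27.95, 35.9, 115 and 29.97 CPM with empty vector. The empty vector library of culture 3 stood far above the other empty vector libraries, and the groups overlapped. The within-pair log2 change of -0.22 ± 0.24 (SE; DESeq2, adjusted p = 0.80) was 0.05 without culture 3. Nfasc, which builds the axon initial segment, was the most even member, at 227, 141, 143 and 156 CPM with Nfib, against 228, 162, 150.5 and 148 CPM with empty vector. Its within-pair log2 change was -0.06 ± 0.08, and the 95% interval from -0.21 to 0.10 excludes a change of the size measured for Mcam.

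The NCAM family was split between an abundant and a scarce gene. Ncam1 had 186, 207, 99.6 and 260.5 CPM with Nfib, against 127, 242, 101 and 229 CPM with empty vector, which DESeq2 put at a log2 change of 0.11 ± 0.14 (SE; adjusted p = 0.849), with a 95% interval from -0.16 to 0.39 and a value of -0.03 without culture 1. It was higher with Nfib in cultures 1 and 4 and lower in cultures 2 and 3. Ncam2 (chromosome 16, 81200697 to 81624285), a relative best known from olfactory axons, had 27.8, 7.41, 9.37 and 0.0781 CPM with Nfib, against 47.2, 9.08, 15.0 and 0.181 CPM with empty vector. It was the 1 gene lower with Nfib in all 4 cultures, with a within-pair log2 change of -0.62 ± 0.21 (SE) and a DESeq2 adjusted p of 0.0616, just short of the threshold, and it passed with no filter on low counts (adjusted p of 0.04995). In culture 4 these levels are 2 and 4 counts, too few to read a ratio from, and cultures 1 to 3 carry the difference. With 1 pair removed Ncam2 passed in 0 of the 4 possible cases, at DESeq2 adjusted p-values from 0.0681 to 0.754. With the block edgeR gave Ncam2 an adjusted p of 0.188.

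The remaining genes did not pass and changed sign between cultures. Cntn1 encodes a contactin, which is tied to the membrane by a lipid anchor and pairs with Nfasc and Nrcam. It had 109, 50.5, 1.68 and 5.39 CPM with Nfib, against 173, 48.9, 5.01 and 3.21 CPM with empty vector, with within-pair log2 ratios from -1.53 in culture 3 to 0.73 in culture 4 (within-pair log2 change -0.35 ± 0.33, SE, DESeq2 adjusted p of 0.741). Cadm1, a synaptic and epithelial adhesion molecule of the nectin-like group, had 153, 67.95, 109 and 120 CPM with Nfib, against 125, 54.4, 109 and 145 CPM with empty vector (log2 change 0.07 ± 0.13, SE; DESeq2, adjusted p = 0.915; -0.0007 without culture 2). Alcam, which binds the T cell protein Cd6 and itself, had 70.9, 28.8, 191 and 110 CPM with Nfib, against 36.4, 26.7, 97.1 and 132 CPM with empty vector. The Nfib library of Alcam was 1.95-fold higher in culture 1 and 1.97-fold higher in culture 3, close to level in culture 2 and lower in culture 4, and the within-pair log2 change was 0.44 ± 0.23 (SE; DESeq2, adjusted p = 0.375).

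Across the 10 genes, 3 kept the same sign in all 4 cultures (Mcam and Chl1 higher, Ncam2 lower), as did 25.6% of all genes tested. The sign of Ncam2 in culture 4 rests on only 2 and 4 counts. None of the 10 had Nfib and empty vector groups that did not overlap, against 0.516% of all genes. The difference in the Nfib effect between new and old cultures was tested as an interaction in edgeR with the block, and 0 of the 10 genes and 0% of all genes passed. DESeq2 called 7 genes and again none of the 10. Before adjustment 405 genes had an edgeR p under 0.05, with 1 adhesion gene among them, Cadm1, whose within-pair log2 ratios were -0.01 and -0.27 in the new cultures 3 and 4 and 0.29 and 0.32 in the old cultures 1 and 2 (difference of -0.45, unadjusted p of 0.0234, adjusted p of 0.9997). Nrcam followed with a difference of -0.82 and an unadjusted p of 0.0594.

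**Figure D3:**
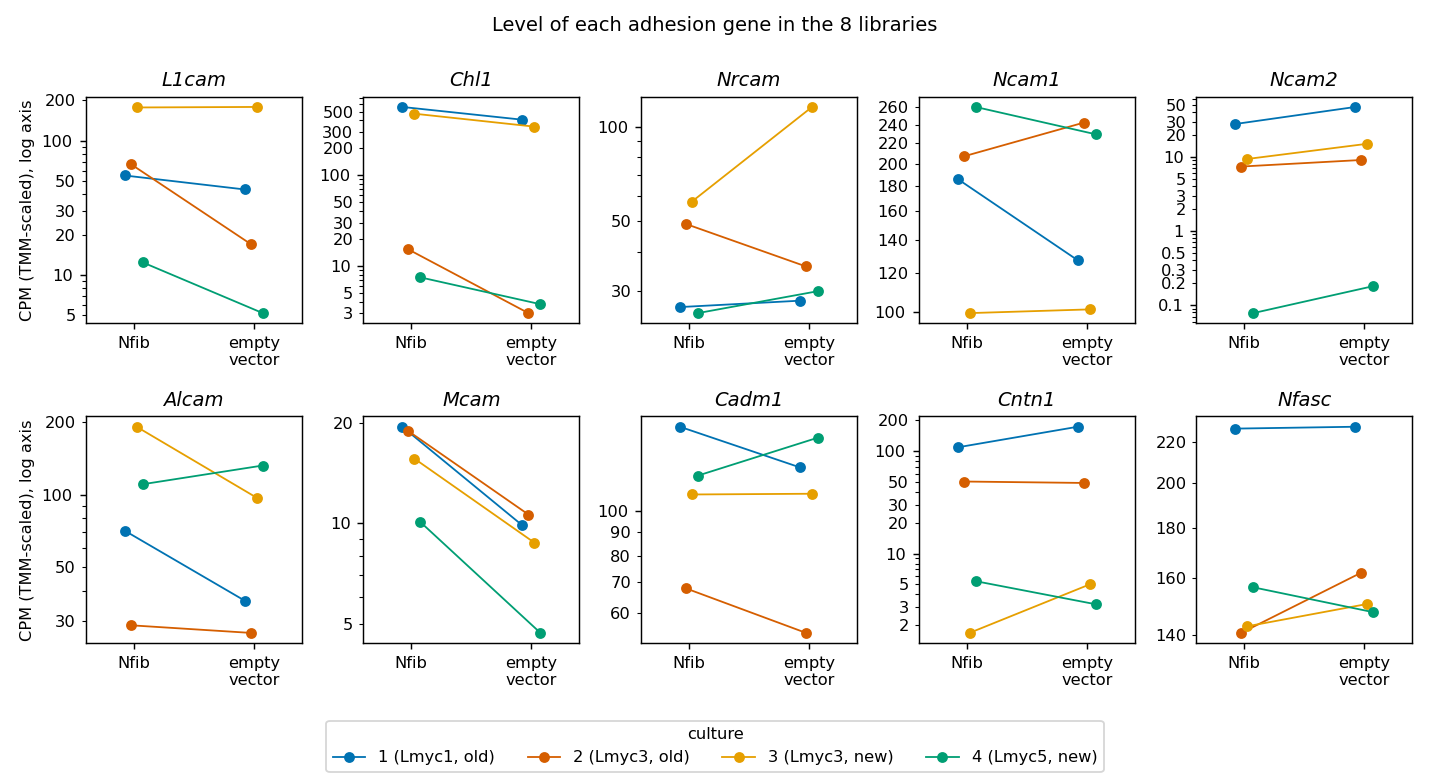
CPM (log axis, a scale of its own for each gene) in the 8 libraries, with the Nfib library to the left and the empty vector library of the same culture to the right. Lines of Mcam run parallel, whereas for Chl1, L1cam, Ncam2 and Cntn1 the gap between cultures is far larger than that between the arms.

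The second comparison was between the cultures themselves, and here some of the adhesion genes differed widely. Chl1 was a gene of cultures 1 and 3, at a mean of 485 and 408 CPM over both arms, and was scarce in cultures 2 and 4, at 9.13 and 5.64 CPM. Cntn1 was a gene of the old cultures 1 and 2, at 141 and 49.7 CPM, against 3.35 and 4.29 CPM in cultures 3 and 4. L1cam peaked in culture 3 at 178 CPM and was lowest in culture 4 at 8.80 CPM, and Ncam2 was highest in culture 1 at 37.5 CPM and close to the detection limit in culture 4 at 0.129 CPM.

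Both arms of a culture stood in for replicates in this test, an edgeR quasi-likelihood F test of the culture terms with Nfib in the model. All 10 genes passed, and so did 76.7% of all genes. Adjusted p-values ran from 9.33e-05 for Ncam2 to 0.0115 for Nrcam. The log2 difference between the highest and the lowest culture had a median of 1.94 over the 10 genes and of 0.93 over all genes tested, and exceeded 2 in 5 of the 10 and in 23.7% of all genes. With a culture left out, single genes dropped below the threshold of the F test: Nfasc without culture 1 (edgeR adjusted p of 0.850), Cadm1 without culture 2 (0.151), Nrcam and Ncam1 without culture 3 (0.0636 and 0.0753) and Mcam without culture 4 (0.245). The 5 genes with a difference above 2 were Ncam2 (7.46), Chl1 (6.46), Cntn1 (5.52), L1cam (4.45) and Alcam (2.29). The value for Ncam2 rests on 2 and 4 counts in culture 4 and on the prior count of 2 used for the log scale. Nfasc, at 0.64, varied less than most genes.

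Each gene's variation over the 8 libraries was divided into a part between cultures, a part between arms and a rest, as shares of the sum of squares of log2 CPM. The part between cultures had a median of 92.2% over the 10 genes and 90.7% over all genes. Mcam had 44.1% between cultures and 55.1% between arms, which left 0.769%. For the other 9 genes the part between arms ran from 0.554% in Cntn1 to 6.89% in L1cam. The median of that part was 1.79% over the 10 genes and 2.1% over all genes.

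**Figure D4:**
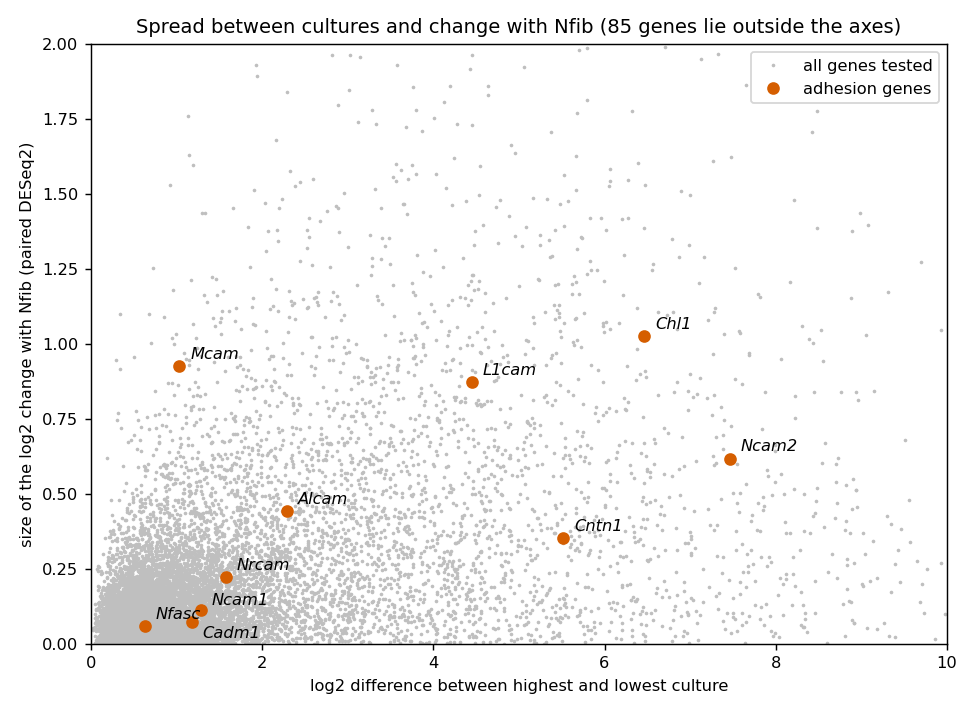
Log2 difference between the highest and the lowest culture (x axis) against the size of the paired DESeq2 log2 change with Nfib (y axis) for all genes tested (grey, 85 of them outside the axes) and the 10 adhesion genes (orange). Mcam joins a change of 0.93 to a culture difference of 1.03, while Chl1, Ncam2, Cntn1 and L1cam lie far to the right.

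Cultures 3 and 2 come from the same line, Lmyc3, and still differed in 8 of the 10 genes, against 59.9% of all genes tested. Culture 3 over culture 2, Chl1 was higher by 5.65 ± 0.47 on the log2 scale (SE, edgeR adjusted p of 0.000382), L1cam by 2.33 ± 0.49 (adjusted p of 0.00877) and Alcam by 2.31 ± 0.34 (adjusted p of 0.00263). Nrcam (0.98), Cadm1 (0.84) and Ncam2 (0.53) were also higher in culture 3. Cntn1 (-3.93 ± 0.49, adjusted p of 0.00144) and Ncam1 (-1.16 ± 0.18, adjusted p of 0.00315) were lower in culture 3. The 2 genes that did not pass were Mcam (-0.28 ± 0.15) and Nfasc (-0.04 ± 0.09).

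The other pairs of cultures gave 5 of 10 genes for culture 2 against 1 (48.4% of all genes), 7 for culture 3 against 1 (38.4%) and 8 for culture 4 against 1 (46.6%). Culture 4 against 2 gave 6 (50.2%) and culture 4 against 3 gave 6 (45.8%). Ncam2 passed in 6 of the 6 pairs and L1cam and Cntn1 in 5. Mcam passed in 3, each of them with culture 4 below the other culture, at log2 differences from -1.04 to -0.76. Nfasc passed in 3, each of them with the other culture below culture 1, at log2 differences from -0.64 to -0.58. Cultures 3 and 2 share their line and differ in the word new or old, while in the contrasts between lines the line and the culture cannot be told apart.

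Patterns over the 8 libraries were also compared between genes, as a description with no test, since the 8 libraries form 4 pairs that share a culture. Among the 10 genes, L1cam and Chl1 were the most alike (Pearson r of 0.79 on log2 CPM, n = 8 libraries), and both ran opposite to Ncam1 (-0.83 and -0.84). Alcam ran opposite to Cntn1 (-0.84). Outside the list, Mterfd2 (r of 0.97), Eci2 (0.97) and Acy1 (0.96) followed Mcam most closely, and Lypd6b (0.997), Zfp783 (0.99) and Gmfg (0.99) followed Chl1. The closest genes were St6galnac2, Cdpf1 and Gm17733 for L1cam (r of 0.97 to 0.98), Rbpj, Casc4 and Pkia for Ncam1 (0.97 to 0.98) and Slc25a5, Tmem251 and Reep5 for Ncam2 (0.991 to 0.996). They were Abcd3, Nudt1 and Gtf2h3 for Nrcam (0.93 to 0.97), Arl8a, Tsr2 and Synj2bp for Nfasc (0.97 to 0.99) and Rnd2, Lhfp and Slc39a14 for Cntn1 (0.99 each). Kif19a, Yipf2 and Tspan15 followed Cadm1 (0.98 to 0.99), and Ptms, Atmin and Ppp1r35 followed Alcam (0.97 each). With so few cultures close likeness is common: 391 of 12585 genes had an r above 0.9 with Chl1, against 14 with Mcam.

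In 4 lists of further genes of the adhesion system some genes passed the paired DESeq2 test, which called 4.06% of all genes, and none passed in edgeR with the block. Of 60 further immunoglobulin superfamily adhesion genes 43 were tested, 2 rose and 1 fell in the paired DESeq2 test, 8 had an unadjusted p under 0.05, and their median log2 fold change was 0.04. Dscam, a neuronal recognition molecule, rose by 1.09 ± 0.35 (SE; DESeq2, adjusted p = 0.0438), at 12.7, 17.4, 0.820 and 22.1 CPM with Nfib, against 5.22, 13.9, 0.0742 and 12.4 CPM with empty vector. Sdk1, which directs synaptic layers, rose by 0.52 ± 0.13 (adjusted p of 0.00413), and Nptn, neuroplastin, fell by 0.30 ± 0.09 (adjusted p of 0.0242). The most abundant gene of that list was Bsg, at 374.5 ± 37.1 CPM with Nfib and 413 ± 54.6 CPM with empty vector (SD, n = 4), with a log2 fold change of -0.15 that did not pass. With 1 pair removed, Dscam, Sdk1 and Nptn each passed in only 1 of the 4 possible cases, and Nptn did not pass with library totals as the scaling (adjusted p of 0.0775). The Dscam level in the empty vector library of culture 3 is under the level of 3 counts.

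Genes that act on or bind these molecules gave 0 to 3 calls per list. None of 26 adaptors and cytoskeleton linkers passed, ankyrins, spectrins and protein 4.1 genes included, in which list Sptan1 was the most abundant at 804 ± 74.4 CPM with Nfib and 830.5 ± 148 CPM with empty vector (SD, n = 4). Before adjustment 7 of the 26 had a DESeq2 p under 0.05, as did 13.86% of all genes, and in edgeR with the block 4 had one, as did 15.04% of all genes. Among 19 tested sheddases, polysialyltransferases and kinases, Fgfr1, a growth factor receptor that Ncam1 and L1cam can bind, was the 1 that rose, by 1.42 ± 0.36 (SE; DESeq2, adjusted p = 0.00417), 0 fell, and 4 had an unadjusted p under 0.05. It had 0.610, 16.3, 4.79 and 30.1 CPM with Nfib, against 0.0678, 10.3, 1.56 and 11.1 CPM with empty vector, so culture 1 held hardly any. Among 19 tested extracellular partners 1 rose and 2 fell, and 6 had an unadjusted p under 0.05. Lama5, a laminin chain that serves as a ligand of Bcam, had 47.3, 45.96, 44.6 and 87.5 CPM with Nfib, against 32.7, 25.6, 22.3 and 44.3 CPM with empty vector. It rose by 0.83 ± 0.13 (SE; DESeq2, adjusted p = 3.96e-08), and its groups did not overlap. Ptprz1, the phosphatase receptor that binds Cntn1 and Nrcam, fell by 0.37 ± 0.09 (adjusted p of 0.00156), at 344, 292, 396 and 300 CPM with Nfib, against 457, 317, 544 and 417 CPM with empty vector. Tnr, a matrix ligand of Cntn1, had 25.1, 17.8, 23.9 and 71.1 CPM with Nfib, against 35.1, 108, 59.1 and 82.5 CPM with empty vector. It fell by 1.14 ± 0.36 (adjusted p of 0.0382), and missed the threshold with library totals as the scaling (adjusted p of 0.0526). With 1 pair removed, Ptprz1 and Tnr each passed in 1 of the 4 possible cases, Fgfr1 in 2 and Lama5 in 4.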

How the data were processed

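RNA was measured in 8 TruSeq RNA libraries. The authors deposited read counts per Ensembl gene, not normalized, with symbols and coordinates. The submitters' processing notes list build GRCm38 and the tools SAMtools 0.1.19, DESeq2, Bowtie 1.0.0 and TopHat2 2.1, but no source used here gives the counter, its strand setting or how RNA was extracted. Group came from the source field, replicate from the titles, and line and old or new from the descriptions. The genotype has a further element that is not reported here.

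The main test was edgeR's quasi-likelihood test without a block (edgeR 4.0.16, R 4.3.3, TMM, original form of the fit, filter by expression). Rose and fell follow DESeq2 1.42.0 with the replicate block on the same genes, unshrunk; 260 genes without an adjusted p were kept as undefined. Its choice, the members and the lists were made with earlier results of these data known. In the results known when the test was chosen, edgeR called no gene. For edgeR, SE was obtained as the absolute log2 change over the root of its F statistic. CPM uses TMM-scaled library sizes, and log2 CPM a prior count of 2. Alternatives used limma 3.58.1 and other scalings, filters and blocks. Gene positions and exon lengths came from GENCODE on GRCm38, which may differ from the authors' annotation. Limits on counts cover counting error only.

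Named genes were the 10 members, Nfib, each list's genes that passed and its most abundant one, and the 3 genes most like each member. For the pairing, both libraries with one replicate number carry one line name in the labels, and deviations from group means correlated at 0.884 to 0.935 within numbers and at no more than 0.0647 otherwise. The tests were tested on simulated counts with known changes. Those counts were drawn with the spread that edgeR with the block estimated for each gene, and not with that of DESeq2.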

Additional observations from a re-analysis of the deposited data

Results flagged for a closer look

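Nrcam stood apart in 1 library. In the empty vector library of culture 3 it had 115 CPM, while the other 3 empty vector libraries lay between 27.95 and 35.9 CPM, a gap of 0.909 of the whole range of the group. The Nfib library of the same culture had 57.7 CPM, the highest of its group, without being set apart in this way. Of the 20 sets of 4 libraries examined (10 genes in each arm) this was the 1 that exceeded the limit, and chance alone sets apart about 1 in 20.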

How the results depend on the processing

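The main edgeR test called 0 adhesion genes, and so did each alternative to it, which were edgeR with the replicate block, DESeq2 and limma voom without it, other scalings, filters and the bias-adjusted form without it, and each replicate or library left out. In the paired DESeq2 test the number was 1. It was 0 with edgeR and the replicate block (0 genes called over all genes, against 543), 0 with limma voom and the block (3 genes) and 0 in DESeq2 with no replicate block (3 genes), Mcam having adjusted p-values of 0.115, 0.05625 and 1. It was 2 with the Lmyc3 pairs summed, where Chl1 also passed, and 2 with no filter on low counts, where Ncam2 also passed (adjusted p of 0.04995). Leaving out 1 replicate gave 1 to 2 adhesion genes, Chl1 joining Mcam without replicate 2 and L1cam without replicate 3. The bias-adjusted form of edgeR with the block called Mcam and 44 genes in all, and the line as the block 35. Over all genes, total counts gave 324 higher and 201 lower genes in the paired test, against 249 and 294. Without replicate 3 the paired test called 234 genes and without replicate 4 it called 251, and 351 and 382 without replicates 1 and 2. The signs of small changes depended on single cultures: the paired log2 fold changes ranged from -0.0309 to 0.231 for Ncam1, from -0.0007 to 0.20 for Cadm1 and from -0.442 to 0.0468 for Nrcam over the fits that left out a replicate. All 10 genes differed between cultures in every alternative that kept 4 cultures. Between 8 and 9 did so with a culture left out: Nfasc did not pass without culture 1, Cadm1 without culture 2, Nrcam and Ncam1 without culture 3, and Mcam without culture 4. The cause of these changes was not tested, and such fits hold fewer samples. For the effect in new against old cultures, 0 of the 10 genes passed in any alternative. Depth limits Ncam2 in culture 4.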
